A study of Mus musculus with 24 samples.

Results

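The genes described here encode the insulin and insulin-like growth factor (IGF) ligands, receptors, substrates and binding proteins *Insr*, *Igf1*, *Igf2*, *Igf1r*, *Irs1*, *Irs2*, *Igfbp3*, *Igfbp4*, *Igfbp5* and *Igfbp7*. Members were all non-control probes that the array annotation assigns to one of these 10 gene names. This gave 18 probes in 23 spots, of 55681 probes in 59305 spots and 34797 gene names on the array. Of these 18 probes, 9 probes of 6 genes had a mean Cy5 signal over 2 times the local background, the intensity filter used before testing. A further 6 probes were dimmer but were called well above background by the scanner software on 4 to 8 of 24 arrays, and 3 probes were well above background on 0 arrays in Cy5.

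Male C57BL/6JOlaHsd mice, 10 weeks old on arrival, were fed a purified diet with 10% of its energy as fat for 3 weeks and one with 40% for the 6 weeks that followed. All mice were then fasted and spent 6 h at 20.9% oxygen (Norm, n = 12) or at 12% oxygen (Hypox, n = 12). The comparison therefore asks what 6 h of mild hypoxia adds to fasting in mice on a high-fat diet, and no group was fed or kept on the low-fat diet to the end. RNA of the *M. gastrocnemius* of 1 mouse was labelled with Cy5 on each of 24 arrays and measured against a Cy3-labelled pool of all samples, and values are log2 ratios of the mouse over this pool after normalization within the array.

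Insulin and IGFs bind tyrosine kinase receptors, the insulin receptor and the type 1 IGF receptor. The activated receptors phosphorylate the docking proteins IRS1 and IRS2, which recruit PI3-kinase and so activate AKT, leading in muscle to glucose uptake through GLUT4, glycogen synthesis and protein synthesis. IGF binding proteins hold IGFs in the circulation and in tissue and set how much ligand reaches the receptor, and *Irs2* transcription is known to be raised by FOXO factors when insulin is low, as in fasting.

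*Irs2* was the member with the smallest P-value, so the sequence that read it is shown, as given in the array annotation, followed by the bases upstream of the gene. The *Irs2* probe is assigned to transcript NM_001081212 from base 3881 and lies on the minus strand at chr8:11004490-11004549 (mouse build mm9). The upstream sequence is the 250 bases before the *Irs2* transcription start in RefSeq (GRCm38.p6, minus strand, chr8:11008930-11009179), with the motifs found in capitals.
Irs2 probe: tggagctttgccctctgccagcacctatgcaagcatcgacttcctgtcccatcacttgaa
Irs2 upstream: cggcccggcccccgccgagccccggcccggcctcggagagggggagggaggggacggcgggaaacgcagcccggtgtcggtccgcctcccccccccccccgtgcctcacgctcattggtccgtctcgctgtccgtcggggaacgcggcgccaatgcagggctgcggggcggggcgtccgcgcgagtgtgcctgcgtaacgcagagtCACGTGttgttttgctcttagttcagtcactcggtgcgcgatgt

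These 250 bases were searched on both strands for the E-box CACGTG and for ACGTG, the core of the hypoxia response element that HIF1 binds. They were also searched for TGTTTAC, 1 form of FOXO site, and other forms were not searched. The capitals mark 1 palindromic E-box, which ends 39 bases before the start and holds ACGTG once on each strand, so that the 2 motifs overlap fully there. Of 32851 mouse upstream windows of this length, 6.02% held the E-box, 16.6% held ACGTG and 3.17% held TGTTTAC. Windows were found for 9 of the 10 members (12 windows, *Insr* not among them). The E-box was found for *Irs1* and *Irs2*, ACGTG for *Igf2*, *Igfbp7*, *Irs1* and *Irs2*, and TGTTTAC for 0 of the 12 windows. These matches are a description of the letters in the window, and the count for TGTTTAC does not cover other FOXO sites.

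The 24 arrays lay on 6 slides with 2 Norm and 2 Hypox arrays each. Mean Cy5 signals of the arrays lay between 58.3 and 933 in Norm and between 63.5 and 1014 in Hypox, and slide 1 was the dimmest. All 10 skeletal muscle markers of a fixed list passed the intensity filter. Hypox replicate 2 stood apart from the other arrays, with the highest log2 ratio of all arrays for 21.9% of the 14122 probes with a value on every array and the lowest for 12.1% (9.01% and 11.9% at most for any other array, 4.17% for an even spread). Hypox replicates 10 and 6, both on slide 4, had the fewest spots well above background in Cy3 (27.0% and 32.4%). Of the 14233 probes past the filter, 2004 (14.1%) had an unadjusted P-value under 0.05, the threshold of the study, with 6.6% lower and 7.48% higher in Hypox, and 143 (1%) passed after Benjamini-Hochberg adjustment over all probes (0.759% lower).

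Of the 9 member probes past the filter, 2 (22.2%) had an unadjusted P-value under 0.05 in limma's moderated test, against 14.1% of all probes, and 0 passed after adjustment. Both were lower in Hypox, where 6.6% of all probes were called lower: the insulin receptor *Insr* and the docking protein *Irs2*. The 9 probes had a median log2 fold change (Hypox minus Norm) of -0.0091, with 6 below and 3 above 0, and the median of all probes was 0.023. The expression of a gene in whole muscle depends on the number of its cells and on the RNA in each, and these cannot be told apart here.

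**Figure D1:**
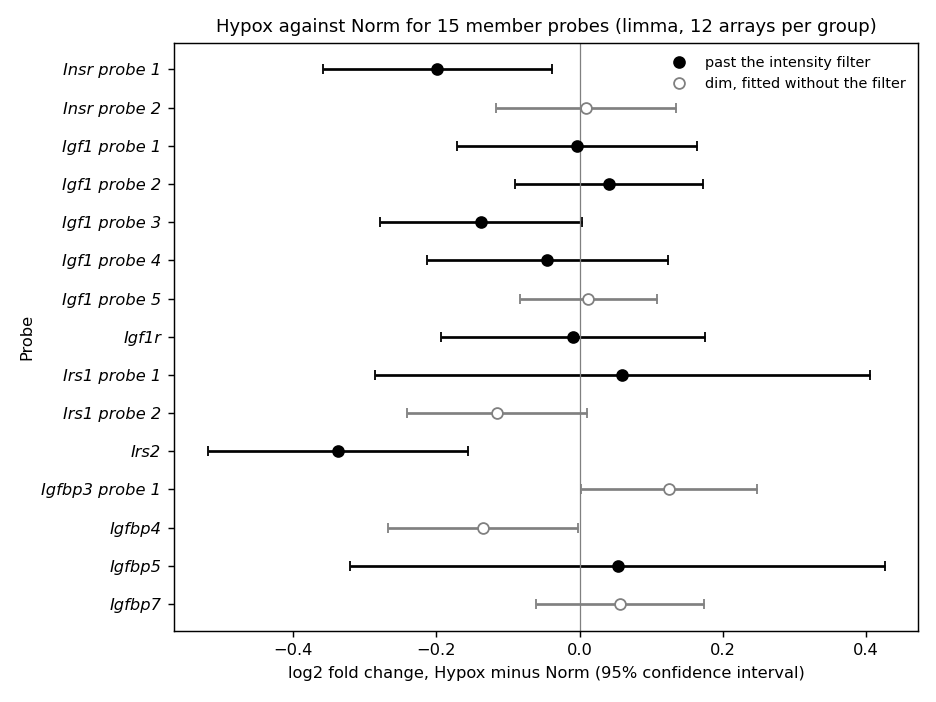
Log2 fold change of Hypox over Norm (x axis) with its 95% confidence interval for the 15 member probes measured on at least some arrays in Cy5, with filled points for the 9 probes past the intensity filter and open grey points for 6 dim probes fitted without it. Among the filled points, only the intervals of Irs2 (-0.52 to -0.16) and Insr probe 1 (-0.36 to -0.039) leave out 0.

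Among the ligands, *Igf1*, which muscle makes itself for local growth and repair, was read by 5 probes of 2 spots each. The brightest (probe 1, NM_184052, chr10:87378456-87378515), at 5.30 times the background, spanned -0.11 to 0.30 in Norm, with a median of 0.053, and -0.17 to 0.70 in Hypox, with a median of -0.016. The groups overlapped, with 4 Hypox arrays below every Norm array and 1, Hypox replicate 2, above every Norm array. The log2 fold change was -0.0039 (standard error 0.082, 95% interval -0.17 to 0.16, limma P-value = 0.962), and without Hypox replicate 2 it was -0.063 (P-value = 0.328). The spread was wider in Hypox (SD 0.25) than in Norm (SD 0.11) with all arrays, and came to 0.14 in Hypox without that array.

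The other *Igf1* probes lay further along the gene, in transcript NM_010512. Probe 3 (chr10:87393561-87393620, 2.29 times the background, well above it on 7 of 12 arrays in each group) spanned -0.32 to 0.33 in Norm, with a median of -0.10, and -0.41 to -0.073 in Hypox, with a median of -0.22. Here 11 of 12 Hypox arrays lay below the Norm median, and 5 Norm arrays lay above every Hypox array. For this probe the log2 fold change came to -0.14 (standard error 0.069, P-value = 0.0553, adjusted P-value = 0.367, limma), lower on 5 of 6 slides. It passed the unadjusted threshold in 7 of 24 fits with 1 array left out and with 5 other settings. These were the methods' t-test on the same log2 ratios (P-value = 0.0332), the deposited values by limma (-0.22, P-value = 0.0335) and by that t-test (P-value = 0.0149), a filter at 1.5 times the background (P-value = 0.0468) and no filter (P-value = 0.0316). With the Cy5 channel alone probe 3 gave -0.095 (limma P-value = 0.286). With median centring its direction turned (0.0020, limma P-value = 0.990), against a median of all probes of 0.24.

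Probe 2 (chr10:87393581-87393640), which overlaps probe 3, gave 0.041 (standard error 0.064, P-value = 0.526), and probe 4 (chr10:87399581-87399640) gave -0.045 (standard error 0.082, P-value = 0.588). Differences between the *Igf1* probes were not tested. With group and slide means removed, the deviations of probe 1 correlated with those of probes 2, 3 and 4 at r between -0.071 and -0.0066 over 24 arrays, and those of probes 2 and 3 correlated at 0.51. The spots of probe 1 differed within an array with an SD of 0.34, above its SD of 0.19 between mice, and those of probe 3 with an SD of 0.16 against 0.15. The fifth probe (1.59 times the background, well above it on 4 Norm and 3 Hypox arrays) gave 0.012 (P-value = 0.797). *Igf2*, the fetal growth factor, was not well above background on any array in Cy5 and on 6 of 24 in the pool, so no fold change is given.

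Among the receptors, the brightest *Insr* probe (NM_010568, chr8:3151667-3151726, 2.66 times the background) was well above background on 8 of 12 arrays in each group. Its log2 ratios spanned -0.33 to 0.29 in Norm, with a median of 0.030, and -0.63 to 0.038 in Hypox, with a median of -0.16. Of the Hypox arrays, 11 of 12 lay below the Norm median, 3 Hypox arrays lay below every Norm array and 4 Norm arrays above every Hypox array. Norm averaged -0.0083 ± 0.16 and Hypox -0.21 ± 0.20 (SD, n = 12 each). The log2 fold change came to -0.20 (standard error 0.078, limma P-value = 0.0167, adjusted P-value = 0.235), a ratio of Hypox to Norm of 0.872.

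*Insr* was lower in Hypox on 5 of 6 slides, from -0.52 on slide 3 to 0.15 on slide 4, and with the slide as a block the P-value was 0.0266. Its lowest array was Hypox replicate 2. Without that array the log2 fold change was -0.16 (P-value = 0.0332), and in the 24 fits that left out 1 array it lay between -0.23 and -0.16 with P-values up to 0.0358. The P-value did not pass with the processed signals of the scanner software (-0.44, P-value = 0.0824), with median centring (-0.019, against a median of all probes of 0.24) or with the Cy5 channel alone (-0.16, P-value = 0.123). A dimmer *Insr* probe (chr8:3155472-3155531, 1.63 times the background, well above it on 2 arrays per group) gave 0.0087 (standard error 0.061, P-value = 0.888), and the third was not well above background on any array in Cy5. The value of *Insr* thus stands on 1 probe in 1 spot.

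*Igf1r*, the receptor of both IGFs (NM_010513, chr7:75378461-75378520, 3.09 times the background, well above it on 9 of 12 arrays per group), spanned -0.16 to 0.45 in Norm, with a median of 0.089, and -0.24 to 0.51 in Hypox, with a median of 0.053. The groups overlapped, with 1 Hypox array below and 1 above every Norm array, and the log2 fold change was -0.0091 (standard error 0.090, 95% interval -0.19 to 0.17, limma P-value = 0.920).

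Among the substrates, *Irs2*, the docking protein known to rise in fasted liver, was well above background on all 24 arrays, at 14.8 times the background. Its log2 ratios spanned -0.63 to 0.072 in Norm, with a median of -0.31, and -0.92 to -0.35 in Hypox, with a median of -0.62. All 12 Hypox arrays lay below the Norm median, 6 of them lay below every Norm array, and 7 Norm arrays lay above every Hypox array. Norm averaged -0.27 ± 0.24 and Hypox -0.61 ± 0.19 (SD, n = 12 each). The log2 fold change was -0.34 (standard error 0.089, 95% interval -0.52 to -0.16, limma P-value = 0.000736, adjusted P-value = 0.0607), a ratio of Hypox to Norm of 0.792. By P-value the probe ranked 172 of the 14233 probes tested. It was the only *Irs2* probe on the array, in 1 spot.

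**Figure D2:**
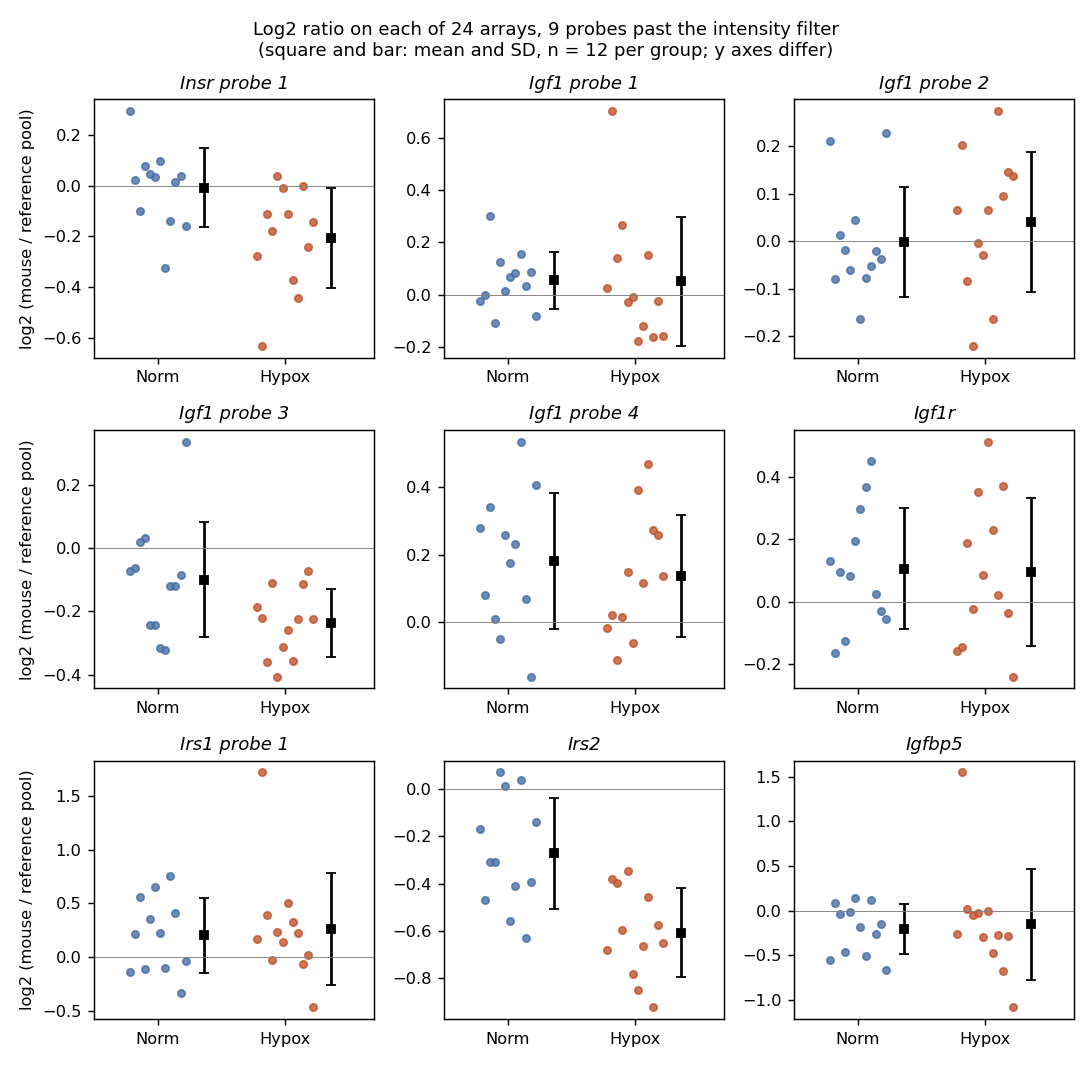
Log2 ratio of the mouse over the reference pool (y axis, scaled per panel) on each of the 12 Norm and 12 Hypox arrays for the 9 member probes past the intensity filter, with black squares and bars for the mean and SD. All 12 Hypox points of Irs2 lie between -0.92 and -0.35, and Hypox replicate 2 is the single high point of Irs1 (1.72), Igfbp5 (1.55) and Igf1 probe 1 (0.70).

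*Irs2* was lower in Hypox on 5 of 6 slides, from -0.59 on slide 6 to -0.27 on slide 1, and on slide 3 the difference was 0.012. With the slide as a block the adjusted P-value of *Irs2* was 0.0488, under the threshold, and without Hypox replicate 2 it was 0.0432 (log2 fold change -0.36). Of the 24 fits that left out 1 array, 2 passed the adjusted threshold, those without Hypox replicate 2 and without Norm replicate 10 (0.0277), and the highest adjusted P-value was 0.115. Of 15 other settings, 3 passed it, namely the slide block, the processed signals (adjusted P-value = 0.0207) and array weights (0.0267). The unadjusted P-value of *Irs2* lay between 0.000247 and 0.00173 in these 24 fits. Hypox replicate 10 held the lowest *Irs2* value. Without Hypox replicates 10 and 6, those with the fewest Cy3 spots well above background, the log2 fold change was -0.29 (P-value = 0.00397).

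**Figure D3:**
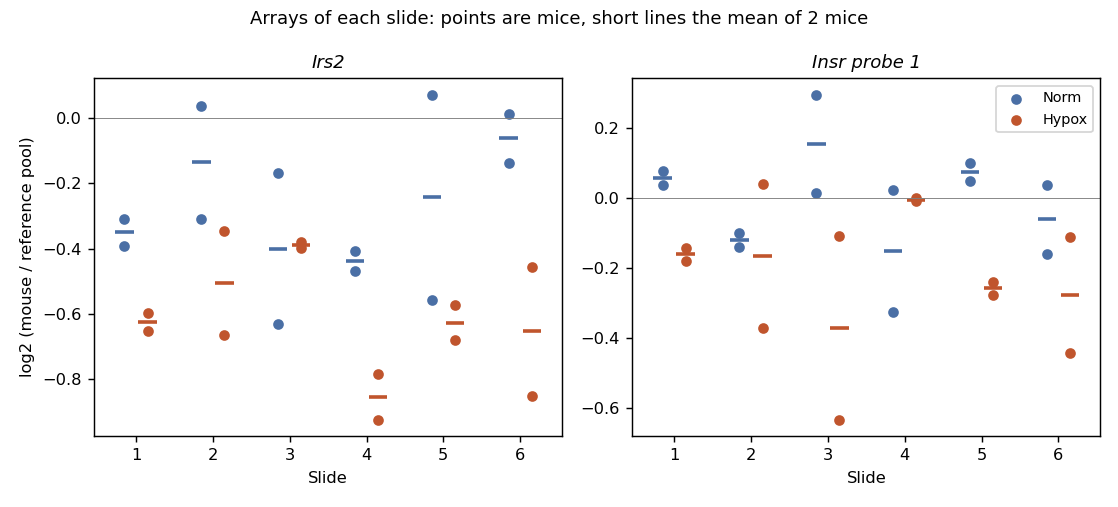
Log2 ratio over the reference pool (y axis) of Irs2 and of Insr probe 1 by slide (x axis), with blue points for the 2 Norm and red points for the 2 Hypox mice of each slide and short lines for their means. Hypox lies lower than Norm on 5 of 6 slides for each gene, with slide 3 the exception for Irs2 and slide 4 for Insr.

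The value of *Irs2* differed under median centring and in the deposited values, and the cause was not tested. Where each array was centred on its median in place of loess, *Irs2* was at -5.2e-05 (P-value = 1.00), but the median of all probes was then 0.24 and *Irs2* lay -0.24 from it. On the log2 values deposited by the authors, *Irs2* averaged 8.39 ± 0.68 in the Norm mice against 8.19 ± 0.53 in the Hypox mice (SD, n = 12 each), with a difference of -0.20 (limma P-value = 0.406). Its SD within groups was 0.61 in the deposited values and 0.21 in the log2 ratios, where the medians over all probes were 0.43 and 0.24.

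*Irs1*, the other docking protein, was read by a probe at 10.9 times the background (NM_010570, chr1:82229692-82229751), well above it on 10 Norm and 11 Hypox arrays. It spanned -0.33 to 0.76 in Norm, with a median of 0.22, and -0.47 to 1.72 in Hypox, with a median of 0.20. The highest value was again that of Hypox replicate 2, and 11 of 12 Hypox arrays lay within or below the range of Norm. The log2 fold change was 0.060 (standard error 0.17, 95% interval -0.29 to 0.41, limma P-value = 0.725), and without that array -0.073 (P-value = 0.560). A dimmer *Irs1* probe (chr1:82233564-82233623, 1.53 times the background, well above it on 2 arrays per group) gave -0.12 (standard error 0.061, P-value = 0.0702). It passed the unadjusted threshold with the processed signals (-0.66, P-value = 0.0218), with array weights (P-value = 0.0263) and without slide 1 (P-value = 0.0192). With no background subtraction the limma P-value was 0.141. The same probe gave -0.051 with the Cy5 channel alone (P-value = 0.436) and -0.012 with median centring (P-value = 0.871). The difference between *Irs1* and *Irs2* in response was not tested.

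Among the binding proteins, *Igfbp5*, which differentiating muscle cells secrete, was well above background on all 24 arrays at 35.7 times the background (NM_010518, chr1:72904829-72904888). It spanned -0.67 to 0.14 in Norm, with a median of -0.17, and -1.08 to 1.55 in Hypox, with a median of -0.27. Both the lowest and the highest array were Hypox arrays, replicates 12 and 2. On average the groups differed by 0.053 (standard error 0.18, 95% interval -0.32 to 0.43, limma P-value = 0.773), and -0.10 without Hypox replicate 2 (P-value = 0.408). The SD was 0.28 in Norm and 0.62 in Hypox, and 0.33 in Hypox without that array.

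The other binding proteins were dim. *Igfbp3*, the main carrier of IGFs in blood, was read by a probe at 1.79 times the background (chr11:7106594-7106653), well above it on 3 Norm and 5 Hypox arrays. Its log2 ratios spanned -0.33 to 0.14 in Norm, with a median of -0.16, and -0.16 to 0.074 in Hypox, with a median of 0.020. All 12 Hypox arrays lay above the Norm median, while 2 Norm arrays lay above every Hypox array. Fitted without the filter, where 8.06% of 55681 probes had an unadjusted P-value under 0.05, it gave 0.12 (standard error 0.060, limma P-value = 0.0469, adjusted P-value = 0.612). With the Cy5 channel alone it gave 0.017 (P-value = 0.768), with the processed signals 0.61 (P-value = 0.0128), and without Hypox replicate 2 the P-value was 0.0648. The unadjusted call was lost under 6 of 13 other settings and held in 8 of the 24 fits with 1 array left out.

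*Igfbp4*, which inhibits IGF action, had a probe at 1.72 times the background (NM_010517, chr11:98913334-98913393), well above it on 3 Norm and 4 Hypox arrays. It spanned -0.30 to 0.13 in Norm, with a median of -0.10, and -0.61 to -0.022 in Hypox, with a median of -0.24, and 6 Hypox arrays lay below every Norm array. The log2 fold change was -0.13 (standard error 0.065, limma P-value = 0.0467, adjusted P-value = 0.611), and -0.10 without Hypox replicate 2 (P-value = 0.0995). It was lower on 3 of 6 slides. The unadjusted call was lost under 9 of 13 other settings, among them median centring (-0.011, P-value = 0.916), the Cy5 channel alone (-0.066, P-value = 0.323) and no background subtraction (P-value = 0.158), and it held in 9 of 24 fits with 1 array left out. *Igfbp7*, which binds IGFs weakly, gave 0.056 (standard error 0.057, P-value = 0.335) at 1.61 times the background, and 0.59 with the processed signals (P-value = 0.0363). In the deposited values its direction turned (-0.10, limma P-value = 0.578). A further *Igfbp3* probe was not well above background on any array in Cy5. At these intensities a difference between the groups could not be measured firmly.

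The rest of the pathway was described through 84 other genes, of which 53 had a probe past the filter. Of these, 0 were higher and 5 (9.43%) lower in Hypox at the unadjusted threshold, against 14% of all gene names (6.52% lower and 7.44% higher, 0.991% after adjustment), and 0 passed after adjustment over all probes. Their median log2 fold change was -0.00075, and that of all genes was 0.024. By group, 1 of 4 extracellular genes, 1 of 6 of the growth hormone axis, 1 of 15 proximal to the receptor and 2 of 28 of the PI3-kinase and AKT branch were lower.

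*Adamts1*, a secreted protease, averaged 0.048 ± 0.43 in the Norm mice against -0.35 ± 0.22 in the Hypox mice (SD, n = 12 each), which gave -0.40 (limma P-value = 0.00568, adjusted 0.155), lower on 6 of 6 slides. *Jak2*, the kinase of the growth hormone receptor, gave -0.25 (P-value = 0.00239) and the adaptor *Crk* gave -0.24 (P-value = 0.00332), both lower on 5 of 6 slides. *Akt2*, the AKT isoform of insulin-stimulated glucose uptake, gave -0.18 (limma P-value = 0.0487, adjusted 0.351) and was lower on 6 of 6 slides. *Gys1*, the glycogen synthase of muscle, gave -0.20 (limma P-value = 0.0425, adjusted 0.333) and was lower on 5 of 6 slides. These are the values of the brightest of 3 *Akt2* and 2 *Gys1* probes past the filter, and their other probes are not given. The ligand genes *Ins1* and *Ins2* and the further binding proteins *Igfbp1* and *Igfbp2* did not pass the intensity filter, and *Igfbp6*, at 44.5 times the background, gave 0.033 (P-value = 0.819).

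**Figure D4:**
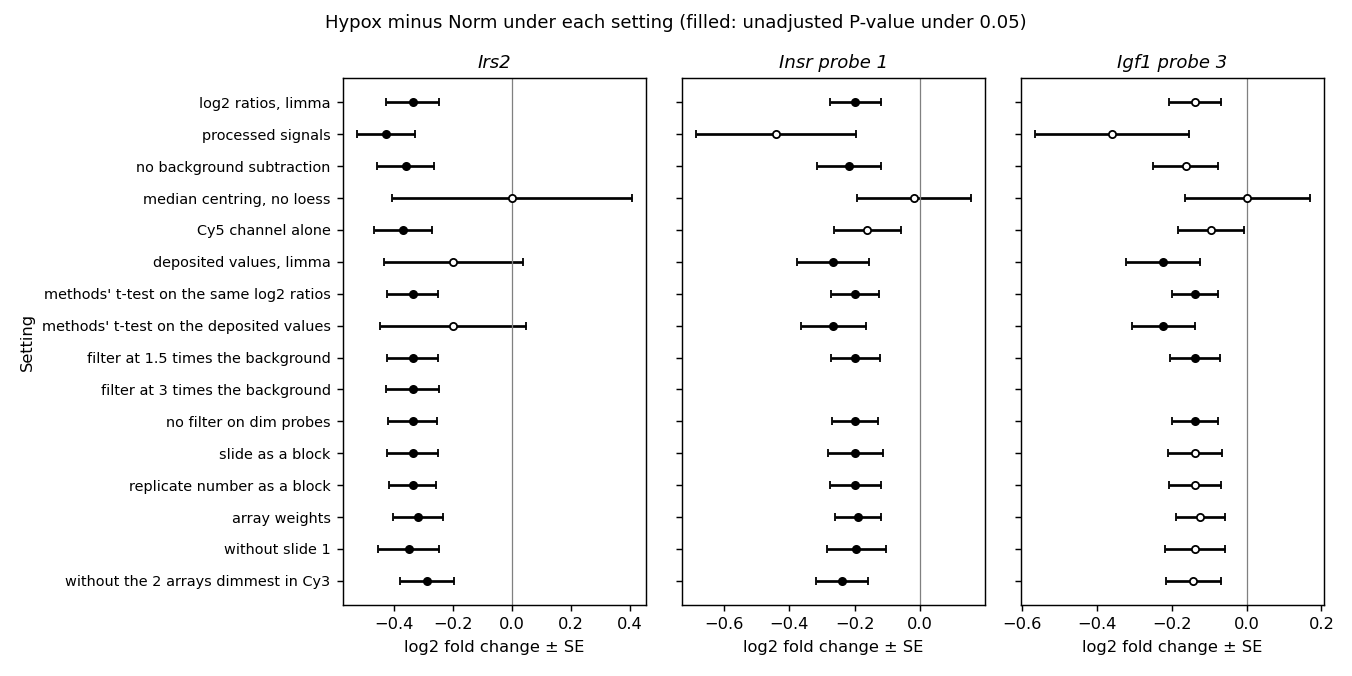
Log2 fold change of Hypox over Norm with its standard error (x axis) for Irs2, Insr probe 1 and Igf1 probe 3 under the setting used here (top) and 15 alternatives (y axis), with filled points where the unadjusted P-value was under 0.05. The 3 open points of Irs2 are median centring (-5.2e-05) and both tests of the deposited values (-0.20), and a probe under 3 times the background has no value under that filter.

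Some markers of other cell types also moved between the groups. At the unadjusted threshold 3 of 7 tested endothelial markers were higher in Hypox, 2 of 6 of adipose tissue, 2 of 8 of fibroblasts and 3 of 6 of peripheral nerve were lower, against 7.44% of all gene names higher and 6.52% lower, and 0 of these passed after adjustment. Of the other lists, *Kcnj8* (0.24, 1 of 8 of smooth muscle and pericytes), *Sftpc* (0.81, the 1 tested lung marker) and *Mylpf* (0.36, 1 of 10 of skeletal muscle) were higher, *Cd34* (-0.26, 1 of 2 of satellite cells) was lower, and 0 of 3 of red blood cells and 0 of 3 of macrophages passed. The other tested satellite cell marker, *Cdh15*, gave 0.25 (limma P-value = 0.0506). Skeletal muscle markers had a median of -0.091, and *Myh4* (-0.59) and *Pvalb* (-0.48) lay below 0 without passing. For smooth muscle and pericytes the median was -0.022. The 8 fibroblast markers did not move lower as a list. *Dcn* (-0.37) and *Col1a2* (-0.40) were the 2 that passed, but their list had a median of 0.073 and reached 0.22 with *Col3a1*. *Sftpc* spanned -2.04 to -0.16 in Norm and -1.39 to 2.57 in Hypox. The endothelial list had a median of 0.19. Its other tested markers, *Vwf* (0.19), *Eng* (0.020), *Tie1* (-0.0040) and *Kdr* (-0.15), did not pass. The mean log2 ratio of the 7 endothelial markers spanned -0.40 to -0.038 in Norm and -0.18 to -0.028 in Hypox. That of the adipose markers spanned -0.59 to 0.74 in Norm and -0.71 to -0.16 in Hypox, that of the nerve markers from -0.37 to 0.48 and from -0.58 to 0.18, and that of the fibroblast markers from -0.45 to 0.19 and from -0.42 to 0.32. Their part in the values of *Irs2* and *Insr* was not tested.

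The spread between arrays differed among the member probes. The SD within groups was 0.13 to 0.48 over the 9 probes and 0.24 at the median of all probes. *Igfbp5* and *Irs1* lay at the 95.1 and 92.9 percentile of all probes. *Igf1* probe 2 lay at 1.67, *Insr* at 15.9 and *Irs2* at 36.1. In the same order their signals were 35.7, 10.9, 2.82, 2.66 and 14.8 times the background. The part of brightness in these SDs was not tested. Without Hypox replicate 2 the SD in Hypox was 0.33 for *Igfbp5* and 0.26 for *Irs1*, against 0.62 and 0.52 with all arrays. With group and slide means removed, *Irs1* and *Igfbp5* varied together over the arrays (Pearson r = 0.91), as did *Igf1* probe 1 with *Igfbp5* (0.80) and with *Irs1* (0.74). Without Hypox replicate 2 these values were 0.76, 0.55 and 0.39, and with the processed signals of all arrays 0.43, 0.59 and 0.32. *Insr* had r of -0.64 with *Igf1* probe 1, -0.48 with *Irs1* and -0.39 with *Igfbp5*. Without Hypox replicate 2 those were -0.35, 0.046 and 0.17, and with the processed signals 0.036, 0.099 and 0.20. All values of an array share its labelling and hybridisation, so they are given as a description.

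**Figure D5:**
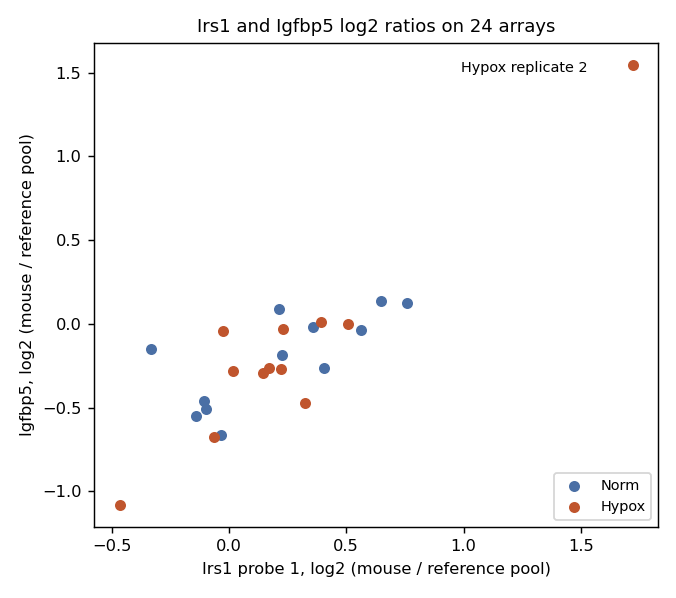
Log2 ratio over the reference pool of Igfbp5 (y axis) against that of Irs1 probe 1 (x axis) on 12 Norm (blue) and 12 Hypox (red) arrays. Hypox replicate 2 lies apart at 1.72 and 1.55, and the other 23 arrays form a band, along which r was 0.76 with group and slide means removed.

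*Irs2* had r between -0.15 and 0.37 with the other members, and up to 0.79 (with *Igf1*) under median centring. Of 11517 other genes, the most like *Irs2* over the 24 arrays were *Parm1* (r = 0.81), *Ctdp1* (0.78) and *Tln2* (0.76). Without Hypox replicate 2 these were 0.81, 0.79 and 0.74, and with the processed signals 0.62, 0.31 and 0.56. *Insr* was most like *Efna1* (0.84), *Cyp39a1* (0.83) and *Myot* (0.78), and *Igf1r* most like *Hmgcs1* (0.74) and *Fip1l1* (0.71). *Irs1* was most like *Mib2* (0.97) and *Dnaic1* (0.96), *Igfbp5* most like *Maf1* (0.95) and *Tom1l2* (0.94), and *Igf1* probe 1 most like *Hcn2* (0.85), *Mettl7a3* (0.85) and *Arglu1* (0.84). Without Hypox replicate 2 the values of *Igf1* with *Hcn2*, *Mettl7a3* and *Arglu1* were 0.68, 0.64 and 0.64, and those of the *Insr*, *Igf1r*, *Irs1* and *Igfbp5* genes named here lay between 0.68 and 0.93. With the processed signals *Igf1r* with *Hmgcs1* was at 0.0080, *Irs1* with *Dnaic1* at 0.20 and with *Mib2* at 0.31, *Igfbp5* with *Maf1* at 0.24 and *Igf1* with *Hcn2* at 0.25. The other genes named for *Insr*, *Igf1*, *Igf1r* and *Igfbp5* lay between 0.52 and 0.78 with those signals.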

How the data were processed

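The authors deposited spot intensity data for 24 2-colour Agilent arrays (mean signal and local background per channel, with spot flags of the scanner software in other columns), written by Agilent Feature Extraction 10.7.3.1 and not normalized between arrays. They also deposited a table of normalized log2 values for 21335 spots. Every column of it had a median of 6.58, and its values correlated with log2 Cy5 at 0.967 to 0.999 and with log2 Cy3 at 0.892 to 0.992, so the scaling and the use of Cy3 are unknown.

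The dye of each sample was taken from the sample descriptions, because the dye fields of some Hypox samples name other dyes. Normexp (offset 50) served as background correction, the log2 ratios (Cy5 over Cy3) underwent loess normalization within each array, flagged readings were left out (7260 of all spots and arrays) and spots of a probe were averaged. Probes with a mean Cy5 over 2 times the local background and values missing on at most 4 arrays were tested (14233 of 55681), Hypox against Norm without a block, by limma's moderated test with Benjamini-Hochberg adjustment over all of them. Dim member probes were taken from a fit of all 55681 probes. The offset adds the same amount to both channels and so narrows the log2 ratios, fold changes and standard errors of probes with low signals. Each mouse is a separate sample of its group. The number of arrays limits the precision, and the median standard error over all probes was 0.097.

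Ranges and medians are given for the brightest probe of each member, apart from *Igf2* and *Igfbp7*, and for *Igf1* probe 3. That probe had a limma P-value of 0.0553 and passed the unadjusted threshold of 0.05 with some other settings. Other pathway genes were read by their brightest probe past the filter. They are given with values where its unadjusted P-value was under 0.05, and *Igfbp6* was picked with its values known. The most like genes are the 3 with the highest Pearson r, of which those without a gene symbol are left out. The members and the gene lists were chosen with earlier results of these data known. The alternatives were other signals, scalings, filters, tests and blocks, array weights, the deposited values, and leaving out arrays. Upstream sequences are from RefSeq (GRCm38.p6), and probe positions are those of the array annotation (mm9).

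On simulated data for this comparison (14233 probes, 200 changed by 1 on the log2 scale), limma recovered 97% of the changed probes with 10 false calls. Without a change, 5.26% of probes had a P-value under 0.05. Changes of the size of the members, such as -0.34 for *Irs2*, were not simulated, and the noise was independent between arrays and probes. R 4.3.3, limma 3.58.1, the package data.table (version 1.17.8), Python 3.11.15, pandas 2.3.3 and matplotlib 3.10.9 were used.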

Additional observations from a re-analysis of the deposited data

How the results depend on the processing

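Of the fold changes of member probes under the 15 other settings, 154 kept direction and side of the unadjusted threshold, 21 no longer passed it, 9 passed it anew and 25 turned direction. The cause was not tested where a value moved. With the processed signals *Insr* probe 2 gave -0.27, *Igf1* probe 2 -0.036, *Irs1* probe 1 -0.15 and *Igfbp5* -0.17. With no background subtraction *Igf1* probe 1 gave 0.0014, and with Cy5 alone 0.017. With median centring, where the median of all probes was 0.24, *Igf1* probes 1, 3 and 4 gave 0.21, 0.0020 and 0.075 and *Igf1r* 0.16. In the deposited values *Insr* probe 2 gave -0.18, *Igf1* probes 1, 2 and 5 gave 0.039, -0.038 and -0.25, and *Igfbp7* -0.10. Array weights gave -0.015 for *Igf1* probe 5 and 0.044 for *Igf1r*. *Insr* probe 2 gave -0.028 without slide 1. Without Hypox replicates 10 and 6, an alternative chosen after seeing the data, it gave -0.014 and *Igf1* probe 1 gave 0.023. With 1 array left out, *Insr* probe 2 lay between -0.016 and 0.032, *Igf1* probe 1 between -0.063 and 0.018, *Igf1* probe 5 between -0.012 and 0.028, *Igf1r* between -0.047 and 0.022, *Irs1* probe 1 between -0.073 and 0.13 and *Igfbp5* between -0.10 and 0.14.

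The count of member probes past the unadjusted threshold (2 of 9) was 1 with the processed signals, 0 with median centring, 1 with Cy5 alone, 1 of 5 tested with a filter at 3 times the background and 5 of 18 without a filter, and 2 to 3 with 1 array left out. For all probes (2004 of 14233, 14.1%) it was 2303 with the processed signals, 57 with median centring and 1327 with Cy5 alone. It was 1586 of 10690 with a filter at 3 times the background and 4487 of 55681 (8.06%) without a filter. In the deposited values it was 974 and 1042 of 19360 (limma and the methods' t-test), and with 1 array left out 1710 to 2266. After adjustment (143) it was 353 with the processed signals, 0 with median centring, 74 with Cy5 alone, 1 and 0 in the deposited values, 89 with the methods' t-test on the log2 ratios, 45 without a filter, 666 with array weights, 43 without Hypox replicates 10 and 6, and 51 to 238 with 1 array left out. For the 53 other axis genes (5) it was 10 with the processed signals, 3 with no background subtraction, 0 with median centring, 2 with Cy5 alone, 2 in the deposited values with each test, and 3 to 7 with 1 array left out.

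The replicate numbers did not pair the mice: same-numbered deviations correlated at -0.22 to 0.54, and 1 of 12 numbers matched best with itself. With the replicate number as a replicate block, *Irs2* had an adjusted P-value of 0.0506 and *Insr* 0.244 (limma), and 127 probes passed. Low signal over background limits all member probes but *Irs2*, *Igfbp5*, *Irs1* probe 1 and *Igf1* probe 1.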
